A study of Homo sapiens with 5 samples.

Results

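Transcription elongation factors keep RNA polymerase II moving through the gene body once it has left the promoter. The genes described here encode the PAF1 complex, DSIF, SPT6 with its partner IWS1, the histone chaperone FACT, the pausing factor NELF, P-TEFb with its 7SK-bound inhibitors, the super elongation complex, the kinases CDK12 and CDK13 with cyclin K, the TFIIS cleavage factors and the methyltransferase SETD2. Members were taken by gene symbol from a list of 36 symbols, by a rule that names complexes and uses no measured value, although the list was drawn up with earlier results of these data known. Of these, 34 had a row among the 33857 genes of the deposited table, with SKIC8 read under its older symbol WDR61, and SUPT4H1, the small subunit of DSIF, was not analysed here.

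The samples were poly(A+) RNA-seq libraries of H9, an established human embryonic stem cell line, grown in mTeSR medium. The study edited NUDT21, which encodes CFIm25, the small subunit of the 3′-end processing complex cleavage factor Im, with CRISPR-Cas9 delivered on an episomal vector. By its account, cultures were selected on puromycin before clones were picked. The 2 mock control libraries (control KO in the labels) came from clones given the empty vector, and the 3 CFIm25-m libraries (CFIm25 KO in the labels) came from edited single-cell clones, called lines here, in which, by the study's account, a small amount of a shortened CFIm25 protein remained. The labels number the libraries as replicates and do not name clones, and lines carry the replicate number here. From the study's account each library is read as 1 clone, so p-values measure the spread between these 5 lines.

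As background, a polymerase that has started a gene pauses shortly downstream of the promoter under DSIF and NELF, and P-TEFb, the kinase formed by CDK9 and a cyclin T, phosphorylates both factors and the polymerase to release it. DSIF, SPT6 and the PAF1 complex then travel with the polymerase, FACT takes nucleosomes apart and rebuilds them in its path, and TFIIS rescues polymerases that have slid backwards by stimulating cleavage of the nascent RNA. The study asked how CFIm25 acts on transcription and looked at the PAF1 complex subunit LEO1 in doing so, and the comparison here asks whether the mRNA of LEO1 and of the other elongation factors differed between CFIm25-m and mock control cells.

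The sequences that define the comparison are the guides, shown because the edited lines were made with them. All of them match the coding sequence in exon 1 of NUDT21 (GRCh37), and the letters in capitals are the PAM read next to each match in the genome. Guide 1 lies at chr16:56485077-56485096 on the + strand, guide 2 at chr16:56485053-56485072 on the + strand and guide 3 at chr16:56485079-56485098 on the - strand, so guides 1 and 3 overlap on opposite strands. The labels do not say which guide gave which line.
Guide 1: cagccggtctgcgagcgattGGG
Guide 2: ccgaactgagtgaccccccgGGG
Guide 3: ccaatcgctcgcagaccggcTGG

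Library totals ranged from 18754108 to 23372391 reads assigned to genes. NUDT21 itself gave normalized counts of 6503 and 6398 in mock control cells and of 4035, 3281 and 3400 in CFIm25-m lines 1, 2 and 3, a log2 fold change of -0.86 (SE 0.11, limma adjusted p = 0.00431). The 8 pluripotency markers summed to 173848 and 177233 normalized counts in mock control cells and to 154486, 159282 and 146742 in the lines, lower in every line. The markers did not move together: DNMT3B, LIN28A, NANOG and SALL4 were lower in every line, POU5F1 (30200.3 and 31427 against 34789, 38899 and 33173) and TDGF1 were higher in every line, and SOX2 and LIN28B overlapped. None of the 8 passed the adjusted threshold, the lowest adjusted p being 0.0854 by limma for SALL4. Of genes with a mean normalized count of at least 500, 30.7% were lower and 10% higher in every line. The part of these markers in the members' values was not tested. Endoderm and mesoderm markers summed to at most 43.1 and 35.6. Ectoderm markers summed to between 10995 and 14139.8 and fibroblast markers to between 12779 and 15984. Most of the ectoderm sum was NES, with a mock control mean of 12793, against 795.7 for OTX2, 19.35 for SOX1 and 3.659 for PAX6. By the same means the fibroblast sum was almost all COL1A1 (8442.4), THY1 (6238.6) and COL1A2 (1115.3). COL3A1, LUM and DCN had mock control means of 5.402, 1.635 and 1.059. In the lines the means of SOX1, PAX6, COL3A1, LUM and DCN were at most 10.08. The number of genes called moved with single libraries, from 180 lower and 181 higher to 524 and 520 without line 3, to 90 and 53 without line 1, to 117 and 84 without line 2, to 35 and 31 without mock control 1, and to 33 and 38 without mock control 2. In RNA from whole cultures, fewer cells that use a gene and less RNA per cell cannot be told apart.

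All 34 members had reads in every library, and their levels, as normalized counts per kb of the gene length in the table, spanned a wide range in mock control cells. TCEA1, the widely used TFIIS gene, was highest at 1836 ± 22.2 (SD, n = 2), followed by LARP7, a 7SK RNA-binding protein, at 1526 ± 35.9 and by SUPT16H, the large FACT subunit, at 1262 ± 6.59. These neighbours were separated by more than their SD. LEO1 stood at rank 16 with 292 ± 10.5, and its neighbours AFF4 at 296 and CTR9 at 278 lay within 2 of its SDs of it, so their order was not resolved. The same held for WDR61 at 121, EAF1 at 120 and CDC73 at 120. At the bottom were EAF2 at 35.8, ELL3 at 18.1 and TCEA3 at 1.45.

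Between the groups, TCEA1 was the single member that passed the test across all genes (limma, adjusted p = 0.043). Of the 33 tested members 1 was called lower and 0 were called higher, against 0.936% and 0.941% of the 19232 tested genes. At an unadjusted p below 0.05, 7 members were lower (TCEA1, ELL, AFF1, NELFA, RTF1, LEO1 and PAF1) and 0 higher, against 7.15% and 7.99% of all tested genes and against 10.5% lower among genes with a mean normalized count of at least 500. On the recovered reads, edgeR called TCEA1 alone lower and 0 members higher, against 0.905% and 0.905% of all genes, and DESeq2 did the same, against 1.45% and 1.81%.

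The fold changes of the members lay mostly below 0 but were small. The log2 fold change was below 0 in 26 of 33 members, against 51.8% of all tested genes, with a median of -0.10 against -0.01. In 18 members every CFIm25-m line was lower than both mock controls, against 19.8% of all tested genes, and in 2, TCEA2 and EAF2, every line was higher, against 17%. The other 13 overlapped. Most members are well expressed, and among the 7604 genes with a mean normalized count of at least 500 the values were already lower, with 67.4% of fold changes below 0, a median of -0.07, and with 30.7% of genes lower and 10% higher in every line. Of the 30 members above that level, 24 had a fold change below 0, 16 were lower in every line and 1 was higher. When libraries were scaled to their total reads instead of the deposited size factors, 22 of 33 members were below 0, the median was -0.03 against 0.06 for all genes, and 8 members remained lower in every line (AFF1, ELL, ELL3, LEO1, NELFA, PAF1, RTF1 and TCEA1), against 12.7% of all genes. Under that scaling 4 were higher in every line (EAF2, NELFCD, SUPT16H and TCEA2), against 23.2%.

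**Figure D1:**
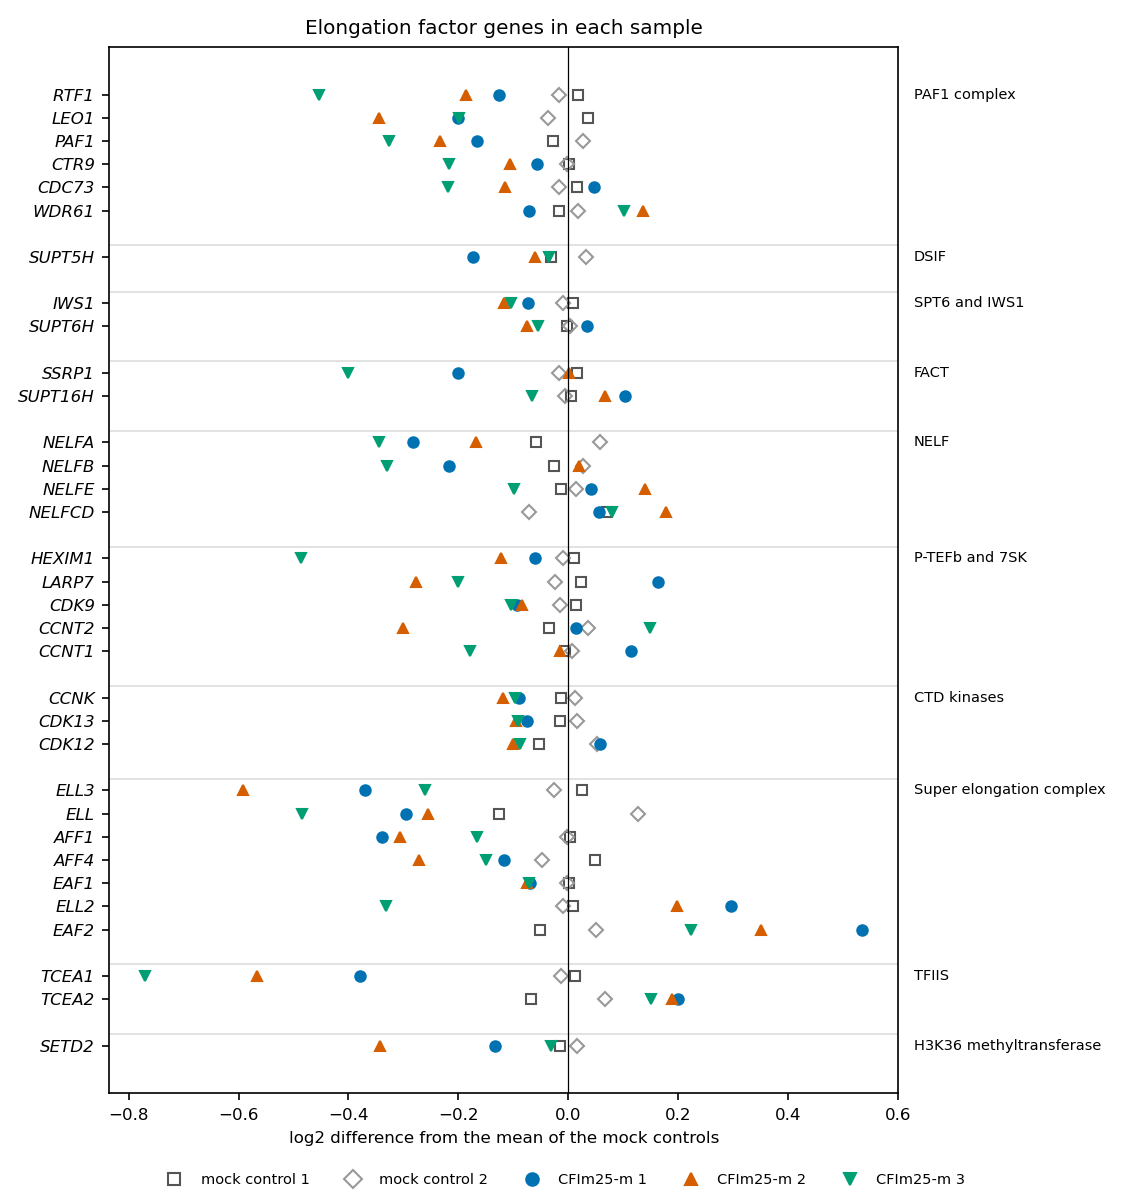
Log2 difference of each library from the mock control mean for every tested member (grouped by complex), with mock controls and CFIm25-m lines 1, 2 and 3 marked separately. The mock controls sit close to 0, and all 3 lines of TCEA1 lie below them, whereas in line 2 ELL3 is lower still (-0.59 against -0.57).

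The lines differed in how far they went. The median log2 difference of the members from the mock control mean was -0.07 in line 1, -0.11 in line 2 and -0.15 in line 3, against 0.00, 0.00 and -0.02 over all genes and -0.04, -0.04 and -0.13 over the 7604 well-expressed genes. Members below the mock control mean numbered 21, 24 and 28 of 33 in the same order (63.6%, 72.7% and 84.8%), against 49.7%, 49.98% and 52.1% of all genes and 60.2%, 59.2% and 69.7% of well-expressed genes. The lowest of the 3 lines was line 3 for 17 members (51.5%), line 2 for 12 and line 1 for 4, and line 3 was lowest for 41.3% of all genes and 55.4% of well-expressed genes. The median range between lines was 0.18 on the log2 scale for the members, 0.25 for well-expressed genes and 0.36 for all genes, and the median distance between the mock controls was 0.03, 0.05 and 0.10. For 27 of 33 members (81.8%) the 95% interval of the log2 fold change lay inside -0.5 to 0.5, against 42.7% of all genes and 81.3% of well-expressed genes.

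**Figure D2:**
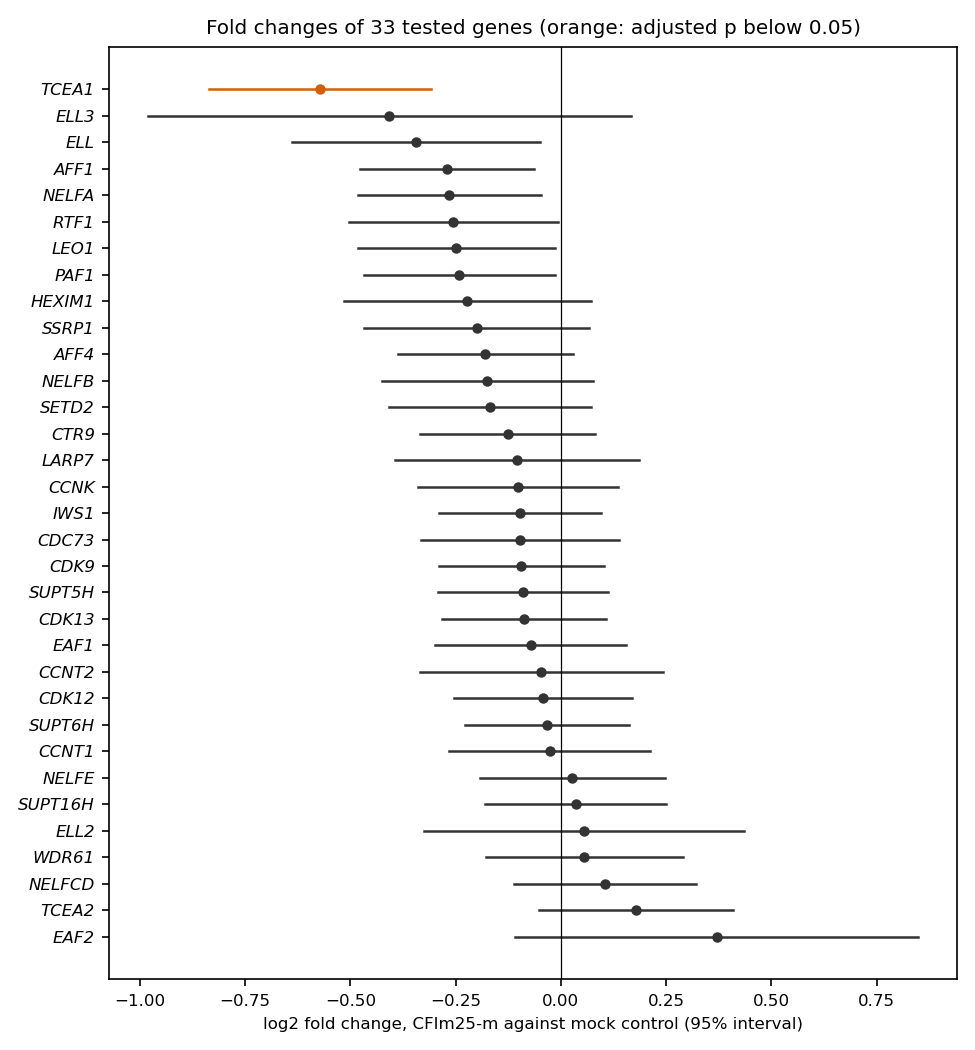
Log2 fold change of CFIm25-m lines (n = 3) against mock controls (n = 2) for the 33 tested members, with limma 95% intervals as bars and TCEA1, the gene with adjusted p = 0.043, in orange. Intervals of ELL, AFF1, NELFA, RTF1, LEO1 and PAF1 also lie below 0 without passing the adjusted threshold.

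The PAF1 complex is a set of 6 subunits, all tested here, and 0 of them passed the adjusted threshold. LEO1, the subunit that the study singled out, gave normalized counts of 802 and 762 in mock control cells and of 680.5, 616 and 681 in lines 1, 2 and 3. All 3 lines were lower than both mock controls, lines 1 and 3 were level, and line 2 was lowest. The log2 fold change was -0.25 (SE 0.10, 95% interval -0.48 to -0.01, adjusted p = 0.303 by limma). PAF1, the subunit after which the complex is named, had 879 and 913 in mock control cells and 799, 762 and 715 in the lines. Its groups did not overlap, and its log2 fold change was -0.24 (SE 0.10, 95% interval -0.47 to -0.02, adjusted p = 0.299). RTF1, which promotes the ubiquitination of histone H2B, had 3283 and 3204 against 2973, 2849 and 2368. The groups again did not overlap, line 3 was lowest, and the log2 fold change was -0.26 (SE 0.11, 95% interval -0.50 to -0.01, adjusted p = 0.316).

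The remaining subunits moved less. CTR9, the scaffold of the complex, had 1675 and 1671 in mock control cells against 1609, 1555 and 1440 in the lines, which were all lower. Its log2 fold change was -0.13 (SE 0.09, 95% interval -0.33 to 0.08, adjusted p = 0.554). CDC73, the subunit known as parafibromin, had 1300.1 and 1270.0 against 1328, 1186 and 1103, so that line 1 lay above both mock controls and the groups overlapped (log2 fold change -0.10, SE 0.11, 95% interval -0.33 to 0.14, adjusted p = 0.701). WDR61, the WD-repeat subunit shared with the cytoplasmic SKI complex, had 867 and 888 against 835, 964 and 942. Here line 1 was lowest and the other two were highest, with a log2 fold change of 0.06 (SE 0.10, 95% interval -0.18 to 0.29, adjusted p = 0.838).

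Summed per kb over its 6 genes, the PAF1 complex came to 1716.5 and 1700.1 normalized counts per kb in mock control cells and to 1574.4, 1510.5 and 1404.0 in the lines. The groups did not overlap. Taken singly, 19.8% of all tested genes and 30.7% of well-expressed genes were lower in every line. Of the other groups of members summed in this way, the TFIIS and AFF genes were also lower in every line. The sums of NELF, FACT, P-TEFb with 7SK, CDK12 with CDK13, and the cyclin T, ELL and EAF genes overlapped. How often sums over gene sets outside the members separate was not tested. RTF1 held the largest share of this mRNA, 32.9% ± 0.341 (SD, n = 2) in mock control and 31.6% ± 2.01 (n = 3) in CFIm25-m cells, and LEO1 held 17.1% ± 0.499 and 16.5% ± 1.48. WDR61 went from 7.06% ± 0.168 to 8.42% ± 1.01. The share of LEO1 overlapped between the groups, at 17.4% and 16.7% in mock control cells and 16.1%, 15.2% and 18.1% in the lines. The share of RTF1 overlapped too. The share of PAF1 was lower in every line, and those of CTR9, CDC73 and WDR61 were higher in every line. The mean share of PAF1 went from 19.66% to 19.0%, of CTR9 from 16.25% to 17.02% and of CDC73 from 7.033% to 7.525%.

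**Figure D3:**
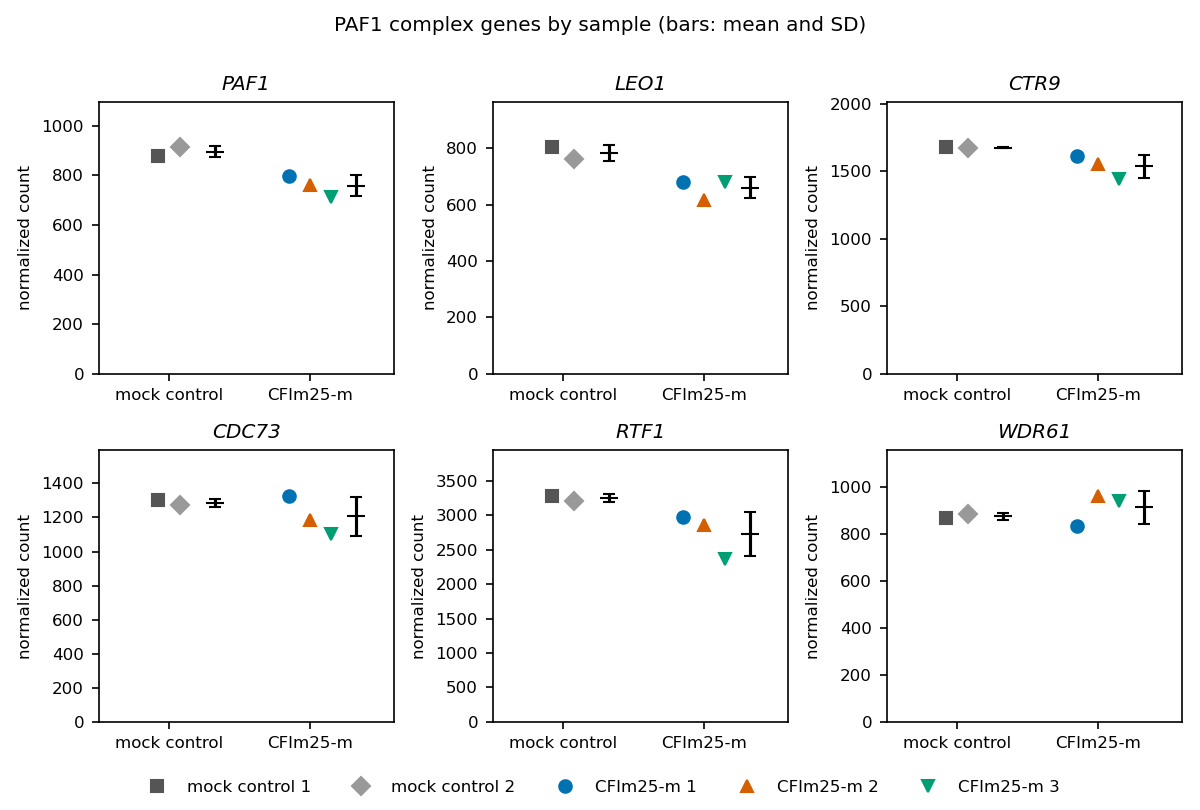
Normalized counts of the 6 PAF1 complex genes in each library, with 2 mock controls and 3 CFIm25-m lines as points and bars for the group mean and SD. LEO1, PAF1, RTF1 and CTR9 are lower in every line, as are 30.7% of well-expressed genes, whereas CDC73 and WDR61 overlap.

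The promoters of the subunits are shown because LEO1, PAF1, RTF1 and CTR9 were lower in every line while WDR61 was not, although no subunit passed the adjusted threshold. RefSeq windows (GRCh38.p14) running from 250 bases before to 50 after the annotated start were at hand for 5 of the 6 subunits, and each of these held the GC box core GGGCGG on either strand. Each printed stretch is 30 bases with the match in capitals (CCGCCC is the same box on the other strand). They lie at chr15:51971960-51971989 (LEO1, - strand), chr19:39391187-39391216 (PAF1, - strand), chr15:41417086-41417115 (RTF1, + strand), chr11:10751193-10751222 (CTR9, + strand) and chr15:78299623-78299652 (WDR61, - strand), with the first base of the match at -199, -98, 4, -41 and -31 from the start.
LEO1: cgcaggacccccCCGCCCcctggtaagaat
PAF1: ctctccctcgctCCGCCCttcacccagacg
RTF1: gcggggccagggGGGCGGagcggagcgcgc
CTR9: ttccgggacaggGGGCGGggtcgccggaag
WDR61: cggcgcgatgccCCGCCCcttcgatagctc
Since all 5 windows held the box, it cannot tell these subunits apart, and CDC73 had no window. Any part of the box in the subunits' values was not tested. Over the 30 members with a window, 80% held GGGCGG on either strand, against 76.1% of 11590 tested protein-coding genes. The other motifs searched on both strands were GGAAGT, an ETS factor core, in 50% against 31.7%, CCAAT in 36.7% against 42.6%, and TATAAA in 3.33% against 8.71%. The median GC content of the windows was 65.7% against 64.7%. A match is a run of letters and not a bound site.

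The TFIIS genes held the one call. TCEA1 gave normalized counts of 8175 and 8037 in mock control cells and of 6236, 5475 and 4754 in lines 1, 2 and 3. Every line was lower than both mock controls, line 1 least and line 3 most. The mean went from 8106 ± 97.9 (SD, n = 2) to 5488 ± 741 (SD, n = 3), a ratio of 0.677, and the log2 fold change was -0.57 (SE 0.12, 95% interval -0.84 to -0.31, adjusted p = 0.043 by limma). The call was close to the threshold and rested on all but 1 of the libraries: the adjusted p was 0.384 without mock control 1, 0.338 without mock control 2, 0.0514 without line 1 and 0.108 without line 2, while it was 0.0035 without line 3. In limma without trend it was 0.215. The log2 fold change stayed between -0.67 and -0.47 in these fits. TCEA1P2, a processed copy, had 2.98% as many counts as TCEA1, and its log2 fold change was -0.30 with an adjusted p of 0.654. How reads were split between the gene and its copy was not tested.

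TCEA2, the paralogue best known from testis, went the other way in value without passing the test. It had 604 and 663 in mock control cells and 727, 721 and 702 in the lines, all of them higher (log2 fold change 0.18, SE 0.10, 95% interval -0.05 to 0.41, adjusted p = 0.448). TCEA3 was close to the limit of detection, at 3.46 and 6.76 against 9.02, 15.3 and 7.69, and was below the filter for testing. Per kb, the 3 TFIIS genes summed to 1969 ± 12.8 (n = 2) in mock control and 1395 ± 171 (n = 3) in CFIm25-m cells. TCEA1 made up 93.2% ± 0.519 of this sum in mock control and 89.0% ± 1.15 in CFIm25-m cells, and TCEA2 went from 6.70% ± 0.485 to 10.8% ± 1.14, with no overlap between the libraries of the groups. Such separation was not particular to TFIIS: the share of every NELF subunit also separated, with NELFE at 30.47% and 30.26% against 33.9%, 32.35% and 33.04%. Within the cyclin T genes, the AFF genes, and CDK12 with CDK13, the shares overlapped. How often shares separate in gene sets outside the members was not tested.

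**Figure D4:**
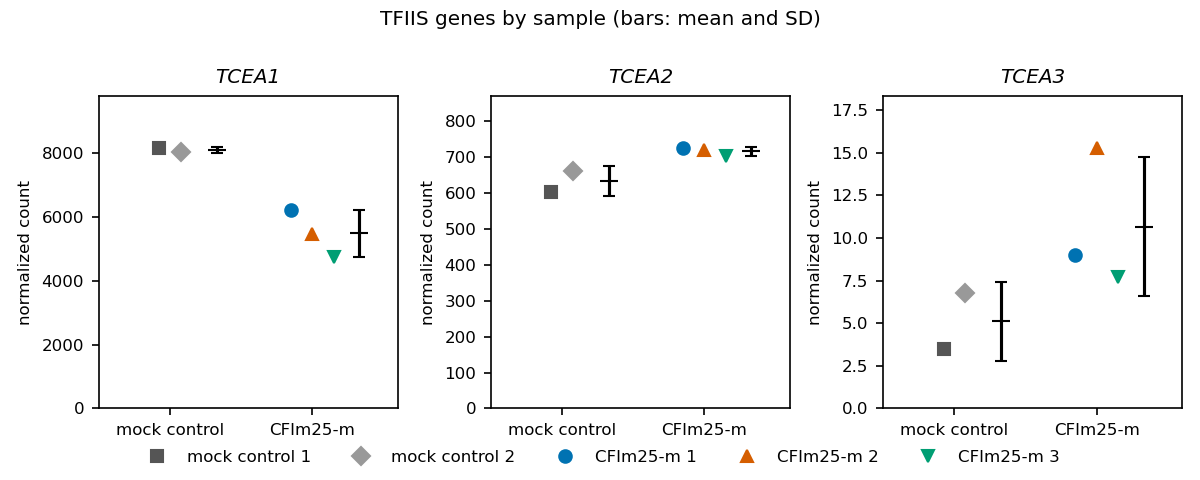
Normalized counts of TCEA1, TCEA2 and TCEA3 in each library, each on its own axis from 0, with 2 mock controls and 3 CFIm25-m lines as points and bars for the group mean and SD. TCEA1 runs from 8175 in mock control 1 down to 4754 in line 3, TCEA2 is slightly higher in every line, and TCEA3 stays at or below 15.3.

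Among the pausing factors, the large DSIF subunit SUPT5H was 3340 and 3491 in mock control cells and 3028, 3273 and 3331 in the lines. All lines were lower, but line 3 missed mock control 1 by less than the mock controls missed each other, and the log2 fold change was -0.09 (adjusted p = 0.671). The NELF subunits split. NELFA, which contacts the polymerase, had 1825 and 1979 in mock control cells against 1562.5, 1692.5 and 1496 in the lines, without overlap (log2 fold change -0.26, SE 0.10, 95% interval -0.48 to -0.05, adjusted p = 0.235). NELFB, the subunit also called COBRA1, had 2983 and 3094 against 2615, 3081 and 2417, where line 2 reached the mock controls (log2 fold change -0.18, adjusted p = 0.497). NELFCD had 1335 and 1209 against 1321, 1438 and 1342, which overlapped, with a log2 fold change of 0.10 (SE 0.10, 95% interval -0.11 to 0.32, adjusted p = 0.644). NELFE, the RNA-binding subunit, overlapped too, at a log2 fold change of 0.03 with an adjusted p of 0.922.

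P-TEFb and its inhibitors showed no call. CDK9, the kinase, was 1601 and 1570.1 in mock control cells and 1486, 1495 and 1476 in the lines. The 3 lines were almost level and below both mock controls, a log2 fold change of -0.09 (adjusted p = 0.645). Its partner cyclins overlapped between the groups, with a log2 fold change of -0.03 for CCNT1 and of -0.05 for CCNT2, and both turned to 0.04 and 0.02 when libraries were scaled to total reads. HEXIM1, which holds P-TEFb inactive on 7SK RNA, had 1165 and 1149 against 1110.5, 1063 and 826, so that line 3 carried most of the log2 fold change of -0.22 (adjusted p = 0.46). LARP7, the protein that stabilises 7SK RNA, had 6332 and 6125 against 6975, 5142 and 5421, with line 1 above and lines 2 and 3 below both mock controls (log2 fold change -0.10, adjusted p = 0.74).

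The super elongation complex brings P-TEFb together with the AFF scaffolds, ELL proteins and their EAF partners, and held members from both ends of the range. AFF1, a scaffold also known from leukaemia fusions, had 2540.3 and 2531 in mock control cells against 2005, 2050.0 and 2259 in the lines. The mock controls lay close together and every line was lower, with a log2 fold change of -0.27 (SE 0.09, 95% interval -0.48 to -0.06, adjusted p = 0.205). Without line 3 the adjusted p of AFF1 was 0.0162. AFF4, the other scaffold, had 3460.1 and 3236 against 3086, 2771 and 3017 (log2 fold change -0.18, adjusted p = 0.401), again without overlap.

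ELL, which raises the rate of elongation, had 458 and 545 in mock control cells and 407, 419 and 357 in the lines. All lines were lower, and the mock controls differed from each other by more than lines 1 and 2 did (log2 fold change -0.34, SE 0.13, 95% interval -0.64 to -0.05, adjusted p = 0.256). ELL2 had 678 and 669 against 827, 772 and 535, so that lines 1 and 2 were above and line 3 below both mock controls. Its log2 fold change of 0.05 (SE 0.17, 95% interval -0.33 to 0.43, adjusted p = 0.91) turned to -0.07 without line 1 and -0.02 without line 2. ELL3 was low, with 53.0 and 51.1 against 40.1, 34.2 and 43.3 (log2 fold change -0.41, SE 0.26, 95% interval -0.98 to 0.17, adjusted p = 0.49).

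The EAF partners stood on opposite sides in value without passing the test. Under scaling to total reads the log2 fold change of EAF1 was -0.0030. EAF1 was the most even member, at 621 and 619.6 in mock control cells and 591, 589 and 591 in the lines, below both mock controls with a log2 fold change of -0.07 and an adjusted p of 0.775. EAF2 had 61.1 and 65.6 against 92.2, 81.0 and 74.1, higher in every line, with the largest positive log2 fold change of the tested members, 0.37 (SE 0.21, 95% interval -0.11 to 0.85, adjusted p = 0.452). EAF2 made up 22.9% ± 0.928 (n = 2) of the summed EAF mRNA per kb in mock control and 28.9% ± 2.25 (n = 3) in CFIm25-m cells, without overlap. As for TFIIS, such separation was also seen for every NELF subunit, while the AFF and cyclin T shares overlapped. Gene sets outside the members were not worked out for comparison.

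The chromatin-side factors gave 0 calls, with log2 fold changes from -0.20 to 0.04. SUPT6H, the SPT6 chaperone, was at a log2 fold change of -0.03 with an adjusted p of 0.894, which became 0.04 under scaling to total reads. IWS1, which binds SPT6, had 1962 and 1936 against 1852, 1798 and 1812, lower in every line by a small amount (log2 fold change -0.10, adjusted p = 0.623). The FACT subunits did not move as a pair in value: the log2 fold change was 0.04 for SUPT16H and -0.20 for SSRP1, with adjusted p = 0.895 and 0.463. SSRP1 had 6541 and 6395 against 5627, 6471 and 4900, where line 2 lay between the mock controls. As a share of FACT mRNA per kb, SUPT16H went from 55.04% and 55.42% in mock control cells to 60.4%, 56.4% and 60.9% in the lines, all higher. Here too, the NELF shares separated as well, and shares within gene sets outside the members were not worked out. SETD2, which places the H3K36 trimethyl mark behind the polymerase, had 2192 and 2240 against 2021, 1748 and 2169, and line 3 nearly reached mock control 1 (log2 fold change -0.17, adjusted p = 0.495).

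CDK12, CDK13 and their cyclin CCNK phosphorylate the polymerase further into the gene. CDK13 had 1661 and 1697 against 1593, 1571 and 1576, and CCNK had 526 and 535 against 498, 488 and 495. Both were lower in every line by little, with log2 fold changes of -0.09 (adjusted p = 0.668) and -0.10 (adjusted p = 0.683). CDK12 had 2291 and 2464 against 2475, 2217 and 2235, overlapping, and its log2 fold change of -0.04 turned to 0.03 under scaling to total reads.

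Further elongation genes, 56 in number and taken from a separate list (BET proteins, Elongin, the little elongation complex, C-terminal domain phosphatases, H2B ubiquitination, H3K79 and H3K36 methylation and others), gave 0 lower calls and 1 higher call, against 0.936% and 0.941% of all tested genes. At an unadjusted p below 0.05, 2 were lower (ICE1 and GLYR1) and 2 higher (CTDSPL and MLLT6), 3.57% each way, against 7.15% and 7.99% of all tested genes. Their median log2 fold change was -0.05, with 35 below 0 and 21 above, and 14 were lower (25%) and 3 higher (5.36%) in every line, against 19.8% and 17% of all tested genes and 30.7% and 10% of well-expressed genes. The called gene was MLLT6, a leukaemia fusion partner related to MLLT10, which binds the H3K79 methyltransferase DOT1L. It had 171 and 181 in mock control cells and 323, 382 and 375 in the lines, so that every line was well above both mock controls (log2 fold change 1.02, SE 0.14, 95% interval 0.71 to 1.34, adjusted p = 0.0064). Its adjusted p was below 0.05 without any 1 of the lines and was 0.0936 without mock control 1 and 0.0665 without mock control 2.

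Some members share part of their position with genes on the other strand. Since the strand setting of the counting is not given in the sources used here, reads in the shared stretch cannot be told apart. LEO1 overlaps MAPK6, with 442% of its count and a log2 value of -0.21 for the fold change, and TMOD3, with 170% and -0.02. CTR9 overlaps EIF4G2, which had 1145% of its count and a log2 fold change of 0.01. For ELL3 the partners were far larger, PDIA3 at 21408% and SERF2 at 6574% of its count, with log2 fold changes of -0.12 and -0.29, so the values of ELL3 are uncertain. WDR61 overlaps DNAJA4, at 24.9% of its count, whose libraries were scattered, at 228 and 264 against 17.0, 172 and 437. For TCEA1 the only partner above 1% was AC100821.1 at 1.01%, and AFF1 had AC093827.4 at 1.21%. At the low end too, LARP7 overlaps MIR367 at 2.04% and MIR302A at 1.06%, IWS1 overlaps AC010976.1 at 3.83%, CCNT2 overlaps CCNT2-AS1 at 1.25%, and WDR61 holds AC090607.1 at 2.05% and, on its own strand, AC090607.2 at 3.86%. CCNK overlaps CCDC85C at 215%, NELFE overlaps SKIV2L at 60.7%, EAF1 overlaps METTL6 at 44.6% and COLQ at 9.11%, LARP7 overlaps ZGRF1 at 19.9% and SUPT6H overlaps SDF2 at 14.8% of the member's count. Of these partners 0 passed the adjusted threshold, and their part in the members' values was not tested. The percentages take the partner's whole count, not only reads in the shared stretch. Introns included, that stretch was 31 bases for NELFE with SKIV2L, 32 for LARP7 with ZGRF1 and 99 for SUPT6H with SDF2. It was 19701 bases for LEO1 with MAPK6 and 34865 for CCNK with CCDC85C.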

How the data were processed

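Poly(A+) RNA of 5 H9 samples was compared, grouped by label into 2 mock control and 3 CFIm25-m samples. The labels number them as replicates, and the clones are taken from the study's account. The authors deposited a table of normalized counts, a signal made by dividing reads per gene by a size factor per library. Per the submitters' processing notes HISAT2, featureCounts of the Subread package and DESeq2 were used with hg38. Their versions, the annotation release and the strand setting are not given in the sources used here. The authors' group means, fold changes and p-values in the table were not used. Each library's values were whole multiples of 1 step within a tolerance of 0.01 reads for 100% of values, which gave the reads and the totals per library.

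Genes with at least 10 normalized counts in at least 2 samples entered limma 3.58.1 (trend) in R 4.3.3, on log2(value + 1) with all 5 samples and no covariate. A fold change on that scale understates the change of low genes. P-values were adjusted over 19232 genes by Benjamini-Hochberg, with a threshold of 0.05. A line counts as lower when it is below both mock controls. On the recovered reads edgeR 4.0.16 (quasi-likelihood) called 174 genes lower and 174 higher, and DESeq2 1.42.0 called 279 and 349. The fits were tested on simulated data. Alternatives were other scalings, filters, pseudocounts, voom, no trend, a replicate block and leaving out each sample. Members with full statistics were those past the threshold, the PAF1 complex subunits and the 5 lowest and 5 highest fold changes, and other members are given more briefly. The members, the further elongation genes and the rule were chosen with earlier results of these data known. All 34 members overlapped their RefSeq position on GRCh38. Guides were matched to GRCh37, and promoter windows of 300 bases came from RefSeq GRCh38.p14.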

Additional observations from a re-analysis of the deposited data

How the results depend on the processing

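Of 544 comparisons of a member's or MLLT6's fold change with an alternative setting, 521 kept direction and side of the threshold. The count of members called lower, 1 in the values reported, was 0 in limma without trend (TCEA1 adjusted p = 0.215) and between 0 and 2 when a sample was left out. It was 0 without mock control 1, mock control 2, line 1 or line 2, and 2 without line 3 (AFF1 and TCEA1). The count of members called higher was 0 under every alternative run. For the further elongation genes, lower calls ranged from 0 to 2 and higher calls from 0 to 2 with a sample left out, and higher calls were 0 in limma without trend (MLLT6 adjusted p = 0.0746). The cause was not tested.

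Mock controls and lines share the numbers 1 and 2 in the labels. Deviations of same-numbered samples from their group means had correlations of 0.0072 and 0.018 over genes. With 2 mock controls these deviations mirror each other, so the correlations cannot exclude shared handling. The labels do not say whether same-numbered samples share more than a number. With the number as a replicate block, line 3 has no partner and drops out of the contrast. Members called lower were then 4 (TCEA1, AFF1 at adjusted p = 0.0011, NELFA at 0.044 and SETD2 at 0.0289), further genes called lower 3 and higher 2, and over all genes 1064 were lower and 1043 higher.

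Small fold changes turned sign. Under scaling to total reads the log2 fold change was 0.023 for CCNT2, 0.026 for CDK12, 0.037 for SUPT6H and 0.042 for CCNT1, and under the block it was 0.0495 for CCNT1. With a sample left out it ranged from -0.14 to 0.081 for CCNT2 (highest without line 2), from -0.096 to 0.0091 for CDK12 (without mock control 2), from -0.097 to 0.0495 for CCNT1 (without line 3), from -0.028 (without line 2) to 0.090 for NELFE, and from -0.067 (without line 1) to 0.25 for ELL2. None of these passed the threshold. Per gene rather than per kb, LEO1 moved from rank 16 to 26. Over all genes limma without trend called 25 lower and 21 higher, and scaling to total reads 147 and 240 against 180 and 181. A group of 2 mock controls limits the precision of every fold change here.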
